A study of Mus musculus with 6 samples.

Results

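The ion and water transport genes of the colon epithelium are the channels, cotransporters, exchangers, pumps and water channels that move salt and fluid across it, with the carbonic anhydrases and corticosteroid regulators that act on them. They were chosen by symbol: 45 genes were listed, and all 45 were found among the 15138 rows of the authors' deposited comparison table and the 46078 genes of the count table. The RNA came from the epithelial fraction of colon, loosened from the tissue by a wash with EDTA (and DTT in the shared protocol), of mice 2 months old that were kept under naive conditions. The groups were mice homozygous for the mutant Lingo3 allele (Lingo3-/-, 3 libraries) and wild type mice (3 libraries). No further allele, strain or treatment is named in the labels, and they do not say whether each library came from its own animal; the p-values reflect only how far these libraries spread, and that spread may be technical. The targeted gene could not check the genotypes: Lingo3 had 2, 0 and 1 counts in Lingo3-/- libraries and 3, 3 and 1 counts in wild type libraries.

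In the colon, crypt cells secrete chloride and bicarbonate, and water follows. Chloride enters the cell from the blood side through the cotransporter encoded by Slc12a2, leaves at the lumen through the channel encoded by Cftr, and potassium channels on the blood side supply the driving force. Colonocytes nearer the surface absorb sodium and chloride through sodium-hydrogen exchangers paired with the chloride-bicarbonate exchanger of Slc26a3, and through the epithelial sodium channel, whose activity is raised by aldosterone.

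Most secretory genes among the 45 rose in the Lingo3-/- libraries, and no absorptive gene among them passed the test. Of 8 genes of chloride and bicarbonate secretion, 6 rose and 0 fell; of 10 genes of sodium, chloride and potassium absorption, 0 rose and 0 fell by edgeR, with 0 higher and 1 lower by DESeq2, 0 of either by limma-voom and 0 higher and 1 lower at an unadjusted p under 0.05. Across all 45 members, 10 rose (22.2%), 0 fell and 35 did not pass. The background over the 16856 genes tested was 9.43% higher and 5.97% lower. Calls are those of edgeR (quasi-likelihood) past 0.05 once p is adjusted by Benjamini-Hochberg over all these genes. The split of all calls turns with the scaling, from 1589 higher and 1007 lower with TMM factors to 1137 higher and 1365 lower with upper-quartile factors, under which the same 10 members rose. Members are mostly well expressed: 39 had a mean of at least 10 CPM (a gene's share of its library's counts, scaled with TMM factors), and among the 8275 genes at that level 16.1% rose and 5.9% fell, against 25.6% of those 39 members rising. Without a multiple-testing adjustment, 12 members were higher and 6 lower at p under 0.05. By DESeq2, 10 were higher and 3 lower, and by limma-voom 10 and 0.

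The start regions of the apical chloride channel gene Cftr and of the apical chloride exchanger gene Slc26a3 are shown because these genes stand at the luminal end of secretion and absorption. They are RefSeq sequences on GRCm38.p6, both on the plus strand, at chr6:18170437-18170716 and chr12:31437969-31438248, and each runs from 250 bases before the transcription start to 30 bases after it. Capitals mark TGACATCA, a variant of the cAMP response element, in Cftr, and the TATA box TATAAA in Slc26a3. 
Cftr: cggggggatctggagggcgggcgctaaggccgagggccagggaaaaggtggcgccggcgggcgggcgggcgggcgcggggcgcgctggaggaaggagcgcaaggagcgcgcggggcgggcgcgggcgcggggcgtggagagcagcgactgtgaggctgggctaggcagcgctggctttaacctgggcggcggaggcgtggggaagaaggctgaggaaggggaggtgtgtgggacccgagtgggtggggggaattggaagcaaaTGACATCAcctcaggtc
Slc26a3: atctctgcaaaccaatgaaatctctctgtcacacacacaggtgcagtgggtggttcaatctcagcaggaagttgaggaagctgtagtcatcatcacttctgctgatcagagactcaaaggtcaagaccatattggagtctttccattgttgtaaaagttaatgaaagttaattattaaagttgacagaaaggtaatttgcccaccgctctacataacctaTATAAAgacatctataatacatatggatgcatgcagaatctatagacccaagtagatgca
The Cftr window, read over the full 300 bases, held 31 CG dinucleotides and 71.3% G and C. The Slc26a3 window held 1 CG dinucleotide and 39.3% G and C, against medians of 7 and 52.7% over the 32851 promoters of the table. TGACATCA, searched on both strands, was in 3.62% of all promoters and in 3 of the 35 members with an entry (Car12, Cftr and Clcn3), where in Cftr it began at base 14 after the start. TATAAA, also on both strands, was in 13.6% of all promoters and in 4 of the 35 members (Sgk1, Slc20a1, Slc26a3 and Slc4a7), and in Slc26a3 it began 30 bases before the start. TGACATCA was chosen after the sequence was read. The other motifs searched, on both strands, were the CDX2-type TTTATG (11.9% of all promoters, 3 of the 35 members), the TCF/LEF-type CTTTGAT (3.73%, 2 members), TGACG, part of the cAMP response element (20.8%, 8 members), and TGTTCT, part of the steroid receptor element (19.0%, 2 members, of which Slc26a3 is 1). All motifs were searched over the full 300 bases, and the TGTTCT match of Slc26a3 is not within its printed bases. CATAAA, the reverse complement of TTTATG, has the same letters as TATAAA except the first.

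Secretion genes are taken in the order in which chloride passes through the cell. Slc12a2 (ENSMUSG00000024597, chromosome 18 from 57878678 to 57946821 on GRCm38) encodes NKCC1, which loads the cell with chloride. It had 331, 399 and 360 CPM in Lingo3-/- libraries 1, 2 and 3, against 165, 175 and 159 CPM in wild type libraries 1, 2 and 3. The lowest Lingo3-/- library lay above the highest wild type one, and the log2 fold change (Lingo3-/- minus wild type) was 1.13 ± 0.11 (SE) with an adjusted p of 0.000785 by edgeR. Cftr (ENSMUSG00000041301, chromosome 6 from 18170687 to 18322768) had 130, 148 and 137 CPM in Lingo3-/- libraries, against 75.7, 71.8 and 90.1 CPM in wild type libraries. The groups did not overlap, and the log2 fold change was 0.80 ± 0.11 (SE) with an adjusted p of 0.00164 by edgeR. Ano1, the calcium-activated chloride channel, had 100, 105 and 114 CPM in Lingo3-/- libraries and 140, 98.0 and 101 CPM in wild type libraries. Its groups overlapped, and the 95% interval of its log2 fold change ran from -0.39 to 0.21 (edgeR adjusted p = 0.696). 

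All 3 potassium channel genes of the secretory group rose. Kcnq1 (ENSMUSG00000009545, chromosome 7 from 143106362 to 143427042) encodes the pore of a cAMP-activated channel on the blood side, and Kcne3 (ENSMUSG00000035165, chromosome 7 from 100176502 to 100184869) its small regulatory subunit. Kcnq1 had 46.2, 53.7 and 46.9 CPM in Lingo3-/- libraries and 27.7, 34.5 and 34.9 CPM in wild type libraries, a log2 fold change of 0.60 ± 0.11 (SE) with an adjusted p of 0.00597 by edgeR. Kcne3 had 90.0, 116 and 114 CPM in Lingo3-/- libraries and 84.4, 69.8 and 77.1 CPM in wild type libraries, a log2 fold change of 0.47 ± 0.12 (SE) with an adjusted p of 0.0218 by edgeR. Neither pair of groups overlapped, though Lingo3-/- library 1 came close to wild type library 1 for Kcne3. The call of Kcne3 was lost without Lingo3-/- replicate 2 (edgeR adjusted p = 0.0841) or 3 (0.0927), or without wild type replicate 2 (0.0636) or 3 (0.0503). Kcnn4 (ENSMUSG00000054342, chromosome 7 from 24370263 to 24386690), the calcium-activated potassium channel, had 28.1, 25.7 and 23.7 CPM in Lingo3-/- libraries and 16.6, 16.7 and 17.7 CPM in wild type libraries. Every Lingo3-/- library was above every wild type one, and the log2 fold change was 0.60 ± 0.10 (SE) with an adjusted p of 0.00360 by edgeR.

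Of the 2 sodium-bicarbonate cotransporters, which bring bicarbonate into the cell, 1 rose. Slc4a7 (ENSMUSG00000021733, chromosome 14 from 14702279 to 14799940) encodes the electroneutral sodium-bicarbonate cotransporter. It had 139, 147 and 147 CPM in Lingo3-/- libraries and 88.1, 82.2 and 88.0 CPM in wild type libraries, without overlap, and its log2 fold change was 0.75 ± 0.09 (SE) with an adjusted p of 0.00119 by edgeR. Slc4a4, the electrogenic cotransporter, had 71.6, 88.3 and 91.3 CPM in Lingo3-/- libraries and 99.7, 74.7 and 75.4 CPM in wild type libraries. The libraries of both groups were interleaved, and the 95% interval of its log2 fold change ran from -0.29 to 0.30.

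**Figure D1:**
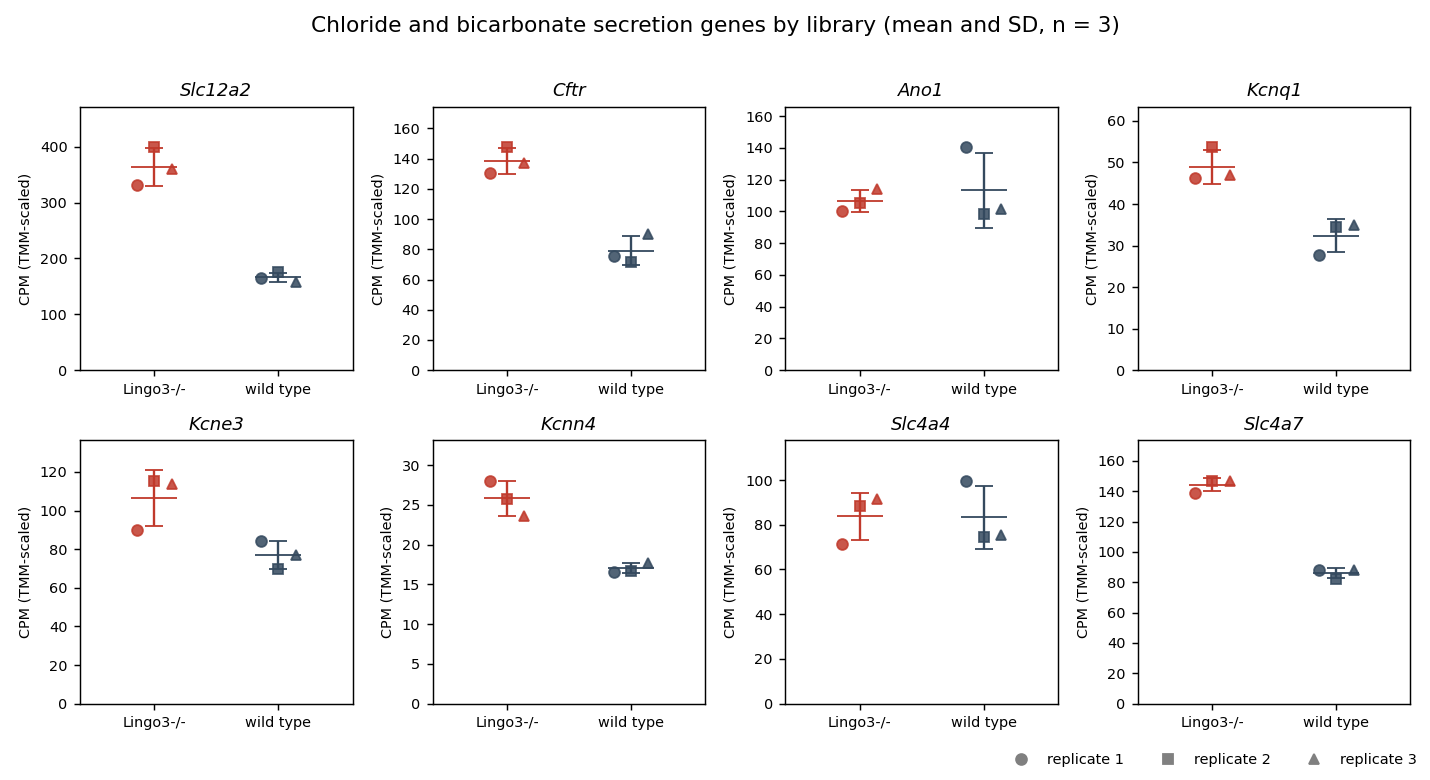
CPM (scaled with TMM factors) of the 8 chloride and bicarbonate secretion genes in each Lingo3-/- library (left, red) and wild type library (right, blue); marker shapes give the replicate number and bars the mean and SD of 3 libraries. In Slc12a2, Cftr, Kcnq1, Kcne3, Kcnn4 and Slc4a7 every Lingo3-/- library lies above every wild type one, whereas Ano1 and Slc4a4 overlap.

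Markers of other cells moved beside these genes. Of 8 T cell genes, cells in which Kcnn4 is also expressed, 6 fell and 0 rose, and their summed level was 62.7 to 113 CPM in Lingo3-/- libraries and 176 to 194 CPM in wild type libraries. In bulk RNA, fewer cells of a type and less RNA per cell cannot be told apart. Of 4 genes of interstitial cells of Cajal, which express Ano1, Kit rose and Prkcq fell. The summed level was 142 to 158 CPM in Lingo3-/- libraries and 85.4 to 117 CPM in wild type libraries. That sum rests mostly on Kit (means of 75.4 and 52.3 CPM) and Thbs4 (70.1 and 41.4 CPM). Thbs4 overlapped between the groups (edgeR adjusted p = 0.266), and Etv1 was low, at 0.730 and 0.750 CPM. Of 7 crypt base genes, 5 rose and 0 fell, the call of Lgr5 being lost on leaving out any single library except Lingo3-/- replicate 1, and that of Smoc2 without Lingo3-/- replicate 2 or 3. Slc12a2 is 1 of them, and over the other 6 the summed level was 131 to 154 CPM in Lingo3-/- libraries and 93.7 to 104 CPM in wild type libraries. Of 6 B and plasma cell genes and 6 myeloid genes, 2 of each list fell and 0 rose. Of these, Cd79b lost its call in 2 of the 6 fits that leave out a library, Mzb1 in 3 and under DESeq2, and Itgax in 4, while Ptprc kept it in all 6. The part of these shifts in the secretion genes was not tested. The epithelial markers Epcam, Krt8, Krt18, Krt20, Cdh1, Vil1 and Cdx2, of the labelled cell type, together reached 4037 to 4772 CPM in Lingo3-/- libraries and 3446 to 4224 CPM in wild type libraries. Among these 7, Krt18 rose (log2 fold change 0.49), a call lost without Lingo3-/- replicate 3, and 0 fell. Of 6 fibroblast genes 0 passed, with a median log2 fold change of -1.27. Their summed level was 225 to 463 CPM in Lingo3-/- libraries and 335 to 987 CPM in wild type libraries.

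Sodium and chloride absorption was the larger class by transcript level and varied more between wild type libraries. Its 10 genes summed to 1473 to 1623 CPM in Lingo3-/- libraries and 1279 to 2225 CPM in wild type libraries, and wild type library 2 was the lowest of all 6. The median coefficient of variation of these genes was 12.3% among Lingo3-/- libraries and 28.1% among wild type libraries. For the secretion genes it was 8.49% and 10.8%, and for all genes tested 12.7% and 11.3%. Slc26a3, the apical exchanger that takes up chloride, had 594, 624 and 667 CPM in Lingo3-/- libraries, against 1016, 487 and 1103 CPM in wild type libraries. Wild type libraries 1 and 3 lay above all Lingo3-/- libraries and wild type library 2 below them, and the log2 fold change of -0.47 ± 0.28 (SE) did not pass (edgeR adjusted p = 0.290). 

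The epithelial sodium channel has 3 subunits, and none passed the test, with fitted changes that differed in sign. Scnn1a (alpha) had 64.2, 62.5 and 63.7 CPM in Lingo3-/- libraries and 113, 61.2 and 93.4 CPM in wild type libraries, and its log2 fold change was -0.49 ± 0.20 (SE; adjusted p = 0.138 by edgeR, the only absorption gene at an unadjusted p under 0.05). It passed by DESeq2 (adjusted p = 0.0429). Scnn1b (beta) had 7.21, 7.11 and 9.60 CPM in Lingo3-/- libraries and 6.83, 6.48 and 4.99 CPM in wild type libraries, without overlap but short of the threshold (edgeR adjusted p = 0.176). Scnn1g (gamma), which lies 96562 bases from Scnn1b on chromosome 7, had 1.65, 4.83 and 4.48 CPM in Lingo3-/- libraries and 2.67, 0.302 and 1.17 CPM in wild type libraries. The 95% interval of its log2 fold change ran from -0.49 to 3.33, which spans both a fall and a large rise. Per kilobase of exon, alpha reached 15.4 ± 0.205 CPM, beta 3.03 ± 0.535 and gamma 1.22 ± 0.583 in Lingo3-/- libraries (SD, n = 3). In wild type libraries the levels per kilobase were 21.6 ± 6.31, 2.32 ± 0.372 and 0.461 ± 0.400 CPM (SD, n = 3), in the same order. Alpha stood above beta beyond the spread in both groups.

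The sodium-hydrogen exchanger genes had narrower intervals. Slc9a3, the main apical exchanger of absorption, had 172, 174 and 186 CPM in Lingo3-/- libraries and 161, 132 and 223 CPM in wild type libraries. The 95% interval of its log2 fold change ran from -0.33 to 0.41. Slc9a2, a second apical exchanger, had 339, 239 and 297 CPM in Lingo3-/- libraries and 385, 282 and 348 CPM in wild type libraries, with an interval from -0.55 to 0.12. Slc9a8, which also exchanges sodium for protons, varied little, at 40.2 to 46.1 CPM in Lingo3-/- libraries and 42.0 to 45.4 CPM in wild type libraries, and its interval ran from -0.25 to 0.15. Clcn2, a chloride channel of the blood side, had an interval from -0.34 to 0.24, and Slc26a6, a further anion exchanger at 3.68 to 6.63 CPM in Lingo3-/- libraries and 4.02 to 7.07 CPM in wild type libraries, one from -0.70 to 0.57. Atp12a, the colonic proton-potassium pump that takes up potassium, had 97.7, 219 and 182 CPM in Lingo3-/- libraries and 342, 123 and 191 CPM in wild type libraries, the widest spread among the abundant members of the class, with an interval from -1.69 to 0.90.

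**Figure D2:**
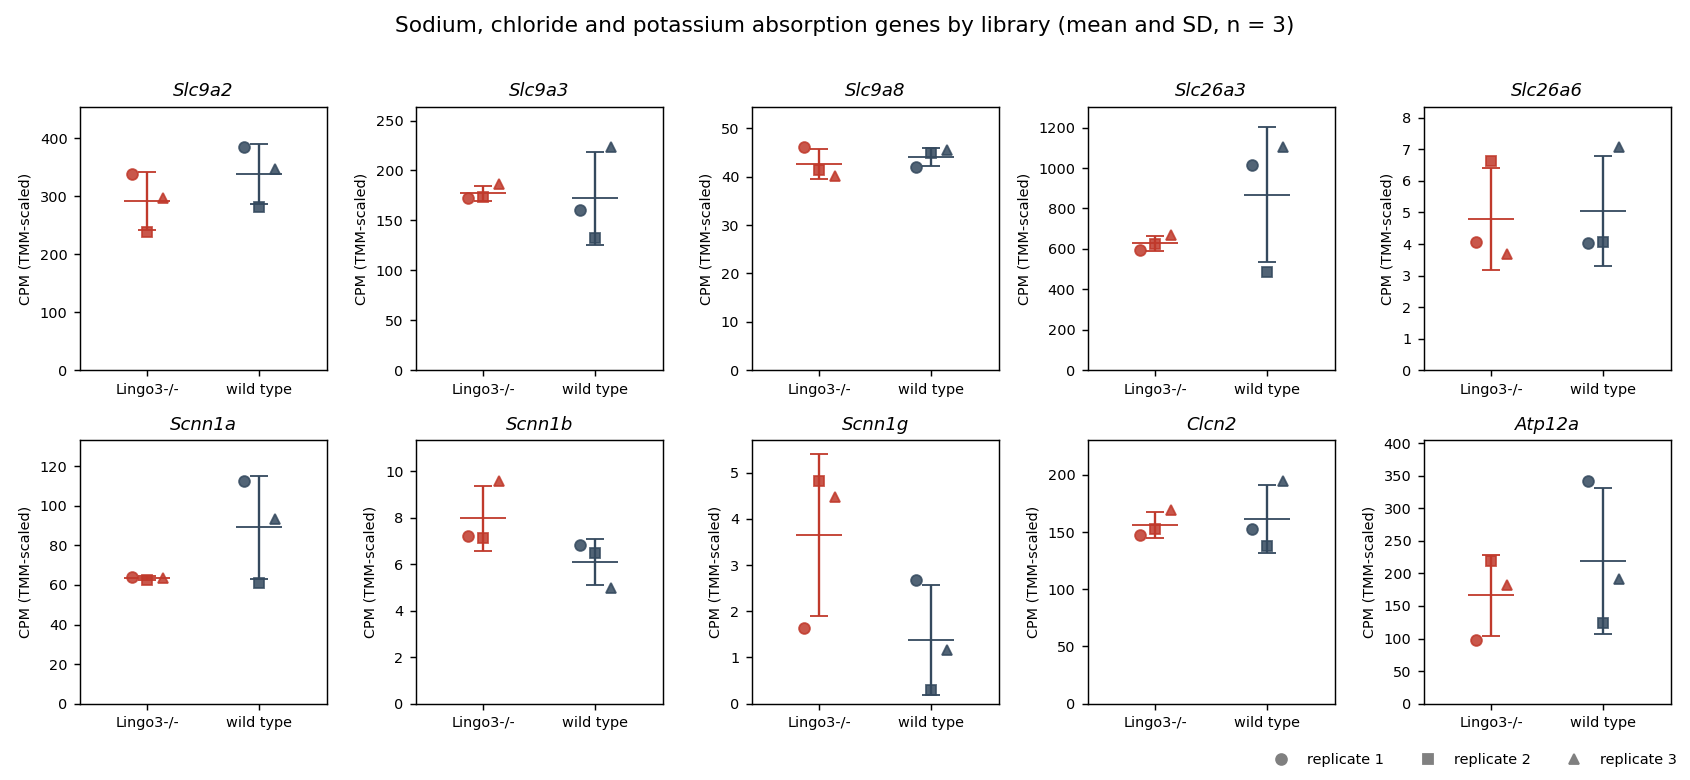
CPM (scaled with TMM factors) of the 10 sodium, chloride and potassium absorption genes in each Lingo3-/- library (left, red) and wild type library (right, blue); marker shapes give the replicate number and bars the mean and SD of 3 libraries. Wild type library 2 (square) is the lowest wild type library in 7 of the 10 panels, and in Slc26a3 it lies below all 3 Lingo3-/- libraries.

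Set side by side, the median log2 fold change was 0.60 for the 8 secretion genes, -0.06 for the 10 absorption genes and -0.03 for all genes tested, a difference of 0.66 between the 2 classes. No test is given for this difference, since the members were chosen with earlier results of these data known. It and the counts by class also depend on where each gene was placed. The anion exchanger Slc26a6 (-0.06) was put with absorption. The chloride-bicarbonate exchanger Slc4a2 (-0.25) was put with the other transporters. As deviations from the mean of the 6 libraries, the median secretion gene stood at 0.27, 0.38 and 0.29 in Lingo3-/- libraries 1, 2 and 3 and at -0.34, -0.35 and -0.22 in wild type libraries on the log2 scale. The median absorption gene stood at -0.13, -0.02 and -0.02 in Lingo3-/- libraries and at 0.14, -0.25 and 0.23 in wild type libraries. Secretion minus absorption was 0.40, 0.40 and 0.31 in Lingo3-/- libraries and -0.48, -0.10 and -0.45 in wild type libraries, without overlap. These values restate the fold changes by library and are no separate support.

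**Figure D3:**
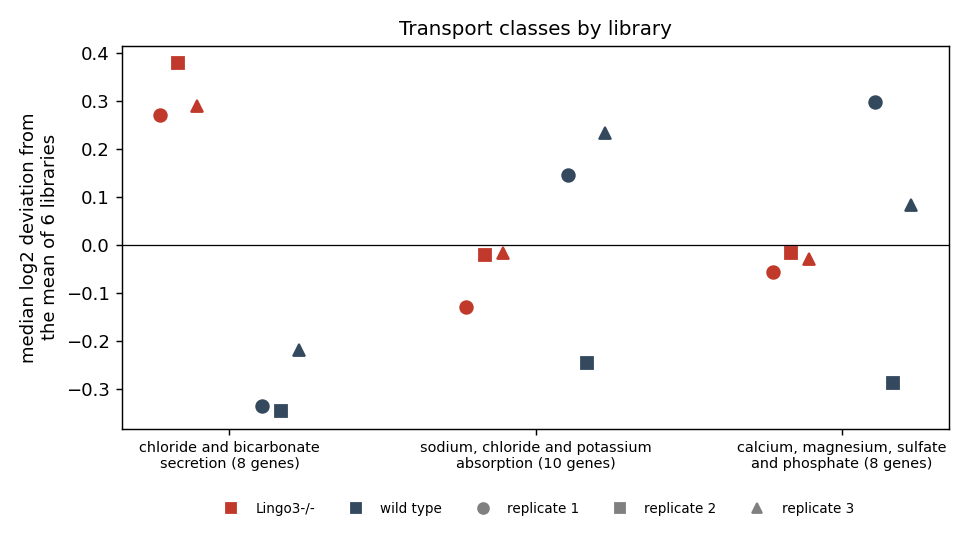
Median log2 deviation from the mean of the 6 libraries over the genes of each transport class (y axis), for Lingo3-/- libraries (red, left in each class) and wild type libraries (blue, right); marker shapes give the replicate number. The secretion genes, 6 of 8 of them called higher on the same libraries, run from 0.27 to 0.38 in Lingo3-/- and from -0.35 to -0.22 in wild type. In the other 2 classes wild type library 2 lies below all Lingo3-/- libraries.

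Leaving out wild type library 2 added calls for 2 of the 10 absorption genes and for 3 genes of mineral and water transport. Scnn1a and Trpm6, which are among them, also passed with that library kept, by DESeq2 or without the filter on low counts. Wild type library 2 was the lowest wild type library in 26 of the 45 members (57.8%) and in 30.2% of all genes tested. Without it, 5 members fell, against 3.5% of all genes lower in that fit. In the same fit Car8 rose and the call of Kcne3 was lost. The 5 were Slc26a3 (log2 fold change -0.73, adjusted p = 0.00964 by edgeR), Scnn1a (-0.68, 0.00613), the magnesium channel gene Trpm6 (-0.70, 0.0110), the phosphate transporter gene Slc20a1 (-0.98, 0.00613) and the water channel gene Aqp8 (-0.65, 0.0251). The secretion minus absorption difference was then 0.79. Of 8 surface colonocyte genes, 1 fell and 0 rose with all libraries. Slc26a3 and Aqp8 are among the 8. Of the other 6, Car4, Krt20, Ceacam20, Guca2a and Saa1 were also lowest in wild type library 2 among the wild type libraries. Saa1, for example, had 255, 253 and 352 CPM in Lingo3-/- libraries and 769, 279 and 486 CPM in wild type libraries. Car1 ran the other way, with 1965, 1524 and 2469 CPM in Lingo3-/- libraries and 1088, 2289 and 1596 CPM in wild type libraries. The 8 genes together summed to 4168 to 5846 CPM in Lingo3-/- libraries and to 5973, 5082 and 6111 CPM in wild type libraries 1, 2 and 3. The part of these surface markers in the absorptive genes was not tested. The labels name a wash with EDTA and DTT for wild type library 1 and EDTA alone for the other 5. Without wild type library 1 the counts were 10 members higher and 0 lower.

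Divalent ion, sulfate and phosphate transport changed in 0 of 8 genes by edgeR, with 1 higher and 1 lower at an unadjusted p under 0.05, 1 lower by DESeq2 and 0 by limma-voom. Trpm6, the apical magnesium channel, had 173, 200 and 153 CPM in Lingo3-/- libraries and 287, 166 and 291 CPM in wild type libraries. Its log2 fold change of -0.50 ± 0.21 (SE) had an edgeR adjusted p of 0.155, and it passed by DESeq2 (adjusted p = 0.0442). Slc20a1, a sodium-phosphate cotransporter, followed the same library pattern, at 114, 149 and 169 CPM in Lingo3-/- libraries and 259, 116 and 316 CPM in wild type libraries, with an interval from -1.70 to 0.34. Slc41a1, a magnesium transporter, was higher in every Lingo3-/- library, at 10.5 to 12.1 CPM against 7.95 to 9.46 CPM in wild type libraries, and missed the threshold (edgeR adjusted p = 0.0745). Cnnm4, which exports magnesium on the blood side, and Trpm7, a channel for divalent ions with a kinase domain, had intervals from -0.35 to 0.27 and from -0.15 to 0.29. Slc26a2, a sulfate transporter among the most abundant members at 603 to 637 CPM in Lingo3-/- libraries and 514 to 790 CPM in wild type libraries, had an interval from -0.43 to 0.25. Atp2b1, the calcium pump of the plasma membrane, averaged 320 ± 49.7 CPM in Lingo3-/- libraries and 389 ± 17.5 CPM in wild type libraries (SD, n = 3; edgeR adjusted p = 0.165). Trpv6, the apical calcium channel, was low, at 2.01 to 6.56 CPM in Lingo3-/- libraries and 2.64 to 6.13 CPM in wild type libraries, and its log2 fold change was 0.32 ± 0.53 (SE).

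Among the water channels, 2 of 4 rose. Aqp4 (ENSMUSG00000024411, chromosome 18 from 15389496 to 15410982), a water channel of the blood side of epithelial cells, had 227, 261 and 275 CPM in Lingo3-/- libraries, against 134, 74.8 and 90.8 CPM in wild type libraries. The groups did not overlap, and its log2 fold change of 1.35 ± 0.20 (SE) with an adjusted p of 0.00460 by edgeR was the largest among the members that passed. Aqp1 (ENSMUSG00000004655, chromosome 6 from 55336432 to 55348555), widely known from endothelium and red cells, had 69.1, 73.9 and 78.9 CPM in Lingo3-/- libraries and 35.8, 43.6 and 33.4 CPM in wild type libraries. All Lingo3-/- libraries were higher, and the log2 fold change was 0.97 ± 0.11 (SE) with an adjusted p of 0.000785 by edgeR. Of the 6 endothelial markers, of which 4 were tested, 0 rose and 2 fell: Pecam1 (log2 fold change -0.99) and Kdr (-1.39). Vwf ran the other way, higher in every Lingo3-/- library but short of the threshold (0.40, edgeR adjusted p = 0.207), and Tek overlapped. The summed level of the 4 tested markers was 7.92 to 10.4 CPM in Lingo3-/- libraries and 13.2 to 16.3 CPM in wild type libraries. Cdh5 and Emcn had at most 8 counts in any library. The part of endothelial cells in the level of Aqp1 was not tested. Aqp8, the most abundant member per kilobase of exon, had 444, 363 and 445 CPM in Lingo3-/- libraries and 750, 313 and 576 CPM in wild type libraries, and its groups overlapped through wild type library 2 (edgeR adjusted p = 0.416). Aqp11, a water channel inside cells, stood at 6.23 ± 1.17 CPM in Lingo3-/- libraries and 6.18 ± 0.653 CPM in wild type libraries (SD, n = 3).

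The carbonic anhydrases make the bicarbonate and protons that the exchangers carry. Car2 (ENSMUSG00000027562, chromosome 3 from 14886273 to 14900770), the main cytosolic enzyme, had 249, 334 and 344 CPM in Lingo3-/- libraries and 219, 160 and 171 CPM in wild type libraries. The groups did not overlap, and the log2 fold change was 0.75 ± 0.16 (SE) with an adjusted p of 0.00980 by edgeR, a call that was lost without Lingo3-/- replicate 3 (0.0552). Car8, a family member without enzyme activity, had 81.0, 93.9 and 92.2 CPM in Lingo3-/- libraries and 54.9, 90.1 and 62.0 CPM in wild type libraries (edgeR adjusted p = 0.183), and it passed without wild type replicate 2 (0.00940). Car12, an enzyme of the cell surface, had 34.9, 32.0 and 35.3 CPM in Lingo3-/- libraries and 22.3, 33.4 and 28.8 CPM in wild type libraries (edgeR adjusted p = 0.189). 

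**Figure D4:**
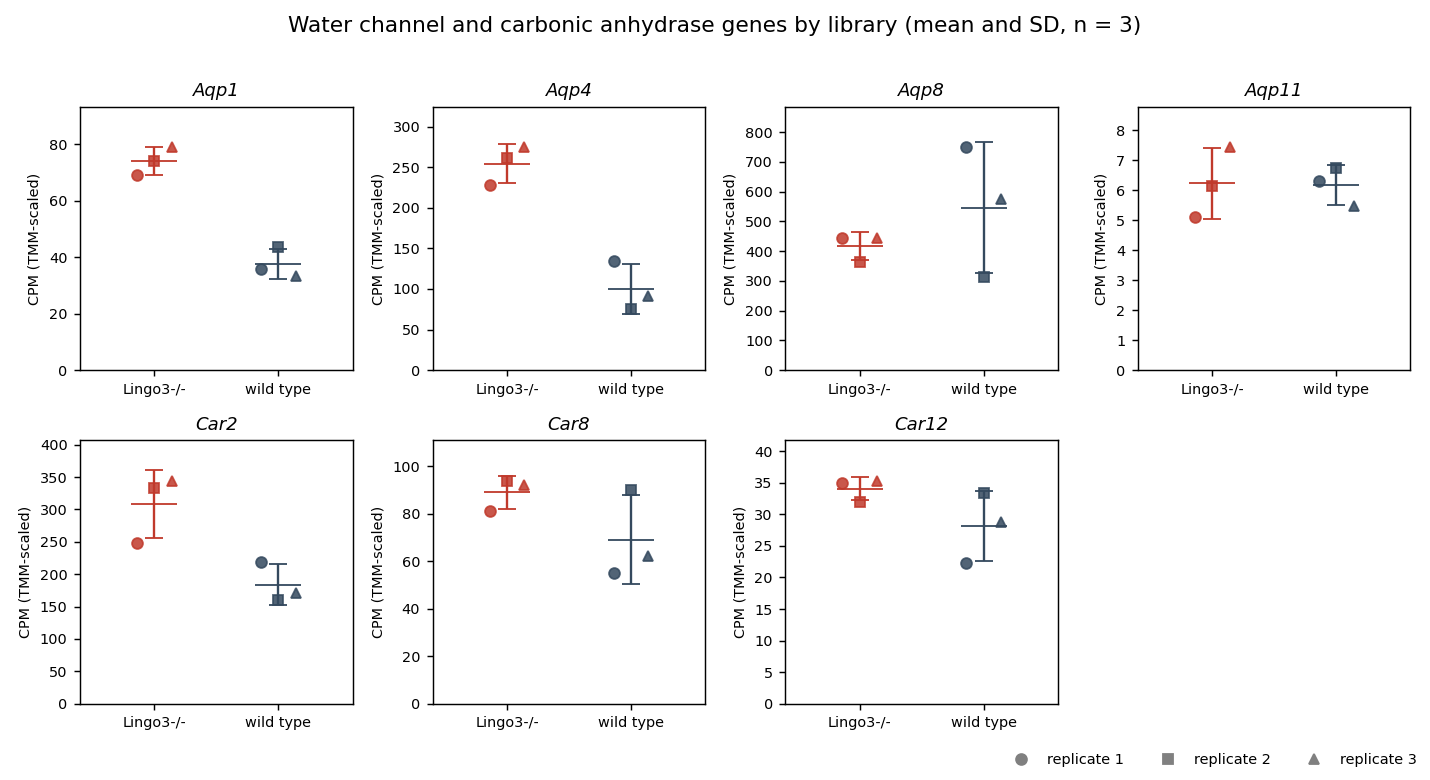
CPM (scaled with TMM factors) of the 4 water channel genes and 3 carbonic anhydrase genes in each Lingo3-/- library (left, red) and wild type library (right, blue); marker shapes give the replicate number and bars the mean and SD of 3 libraries. Aqp1, Aqp4 and Car2 are higher in every Lingo3-/- library, and Aqp8 spreads from 313 to 750 CPM among wild type libraries.

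The beta subunits and modulator of the sodium pump, which keeps cell sodium low for all of these transporters, did not pass, with 0 of 3 genes called by edgeR, DESeq2 or limma-voom and 1 higher at an unadjusted p under 0.05. Atp1b1 had 449, 432 and 509 CPM in Lingo3-/- libraries and 564, 376 and 459 CPM in wild type libraries, with an interval of the log2 fold change from -0.34 to 0.32. Atp1b3 stood at 31.3 ± 1.24 CPM in Lingo3-/- libraries and 27.8 ± 0.383 CPM in wild type libraries (SD, n = 3), without overlap (edgeR adjusted p = 0.201). Fxyd3, a small modulator of the pump, stood at 12.9 to 13.6 CPM in Lingo3-/- libraries and 9.50 to 12.4 CPM in wild type libraries, also without overlap (edgeR adjusted p = 0.149). 

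Of the other anion and potassium transporters, 1 of 5 rose. Kcnk1 (ENSMUSG00000033998, chromosome 8 from 125995170 to 126030685), a leak potassium channel with paired pore domains, had 48.1, 49.4 and 60.4 CPM in Lingo3-/- libraries and 39.2, 36.2 and 31.9 CPM in wild type libraries. The groups did not overlap, and the log2 fold change was 0.55 ± 0.11 (SE) with an adjusted p of 0.00901 by edgeR. Its relative Kcnk5, an alkali-activated leak channel, had 38.8, 50.2 and 63.5 CPM in Lingo3-/- libraries and 78.8, 59.0 and 76.2 CPM in wild type libraries. Lingo3-/- library 3 lay within the wild type range, and the log2 fold change of -0.49 ± 0.18 (SE) had an edgeR adjusted p of 0.106, or 0.0449 without that library. In the authors' deposited table Kcnk5 had a DESeq2 adjusted p of 0.0462. Slc12a7, a potassium-chloride cotransporter, was lower in every Lingo3-/- library, at 77.4, 76.9 and 80.9 CPM, against 90.9, 87.1 and 100.3 CPM in wild type libraries, and missed the threshold (edgeR adjusted p = 0.101) except with upper-quartile factors (0.0365). Slc4a2, a chloride-bicarbonate exchanger of the blood side, averaged 129 ± 9.17 CPM in Lingo3-/- libraries and 154 ± 17.7 CPM in wild type libraries (SD, n = 3; edgeR adjusted p = 0.151). Clcn3, a chloride-proton exchanger of endosomes, had an interval from -0.16 to 0.26. 

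Regulators of sodium transport did not pass, with 0 of 4 genes called by edgeR, DESeq2 or limma-voom and 1 lower at an unadjusted p under 0.05. Nr3c2, the mineralocorticoid receptor that binds aldosterone, had 202, 211 and 199 CPM in Lingo3-/- libraries and 258, 214 and 265 CPM in wild type libraries. Every Lingo3-/- library was the lower, by a narrow gap to wild type library 2, and the log2 fold change was -0.27 ± 0.11 (SE) with an adjusted p of 0.132 by edgeR. Sgk1, a kinase induced by corticosteroids that keeps sodium channels at the surface, had 201, 305 and 424 CPM in Lingo3-/- libraries and 169, 211 and 407 CPM in wild type libraries, and the spread within each group was larger than the difference between them. Nedd4l, the ubiquitin ligase that removes the sodium channel, stood at 84.8 ± 2.82 CPM in Lingo3-/- libraries and 96.3 ± 8.40 CPM in wild type libraries (SD, n = 3), without overlap (edgeR adjusted p = 0.219). Tsc22d3, a glucocorticoid-induced gene also expressed in lymphocytes, stood at 48.1 to 71.7 CPM in Lingo3-/- libraries and 44.5 to 64.1 CPM in wild type libraries. 

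**Figure D5:**
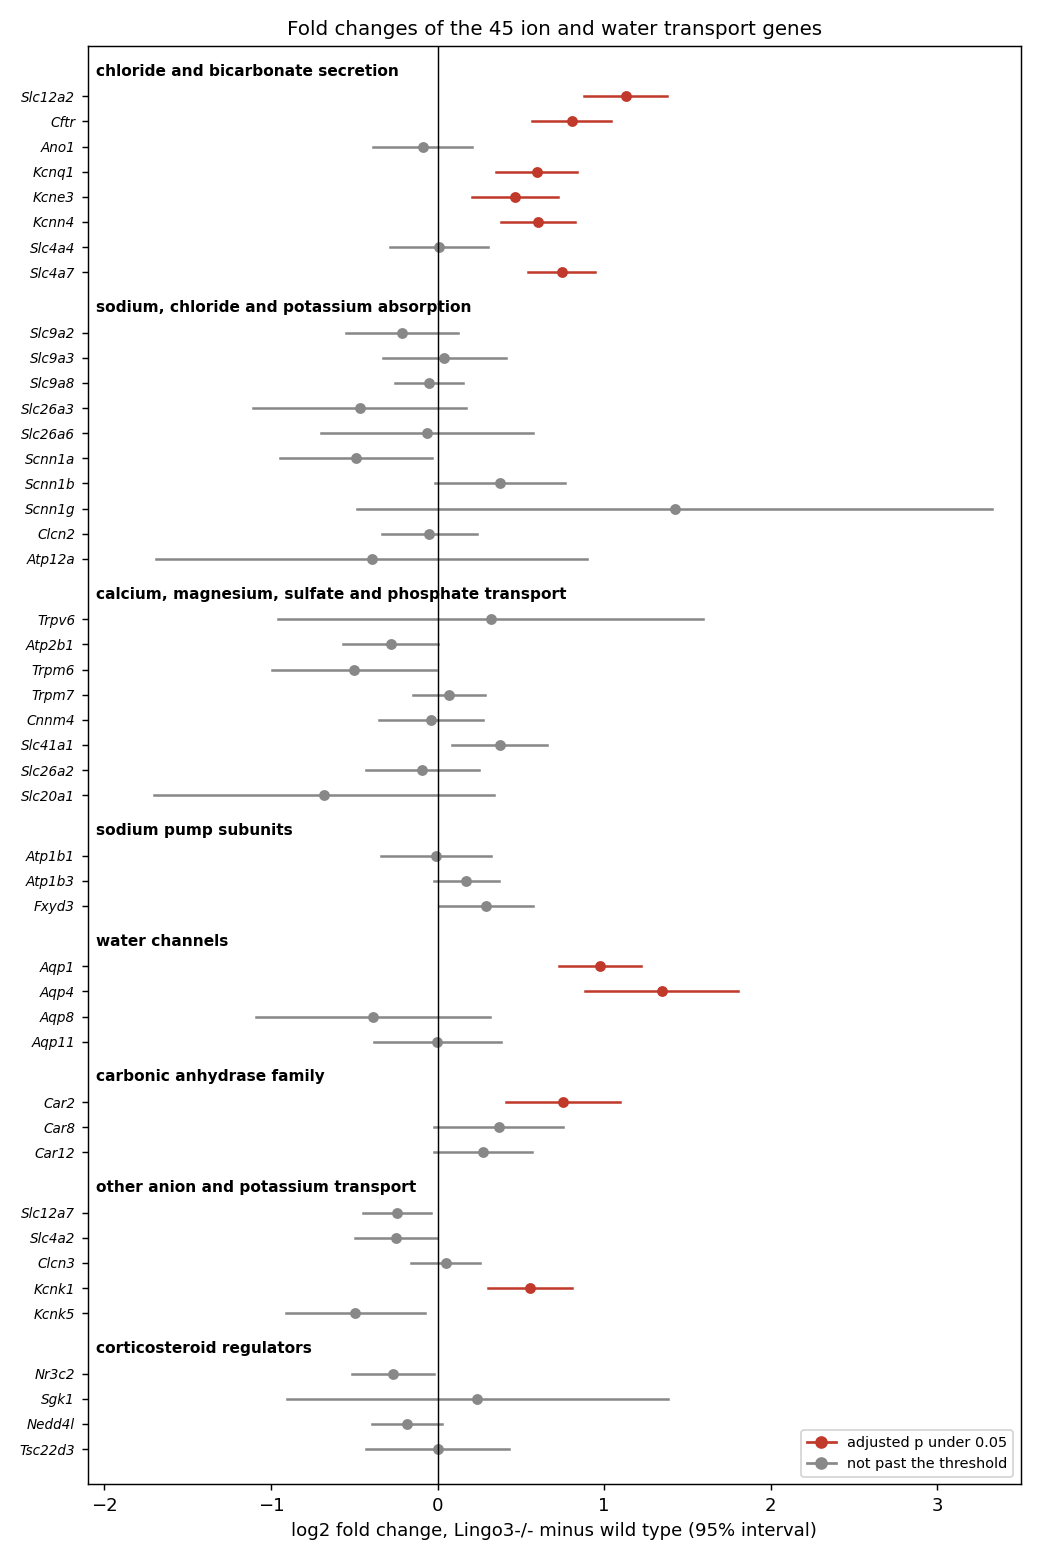
Log2 fold change (Lingo3-/- minus wild type, x axis) of each of the 45 genes with its 95% interval, grouped by role; red marks an adjusted p under 0.05 over all genes tested. The 10 genes in red all lie to the right of 0 and 6 of them belong to chloride and bicarbonate secretion, while Scnn1g, Atp12a and Trpv6 have the widest intervals.

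Transcript levels per kilobase of exon ranged widely over the members. Aqp8 stood highest in both groups, at 264 ± 29.6 CPM per kilobase in Lingo3-/- libraries and 346 ± 139 in wild type libraries (SD, n = 3), followed by Atp1b1 at 150 ± 13.2 and 151 ± 30.6. Car2 came next in Lingo3-/- libraries, at 128 ± 21.7, and Slc26a3 after it at 98.6 ± 5.80. In wild type libraries Slc26a3 stood at 136 ± 52.3 and Car2 at 75.7 ± 13.1 CPM per kilobase, with ranges that do not separate beyond the spread of Slc26a3. Slc12a2 stood at 33.3 ± 3.11 and Cftr at 17.8 ± 1.12 CPM per kilobase in Lingo3-/- libraries, against 15.2 ± 0.763 and 10.2 ± 1.24 in wild type libraries (SD, n = 3). Aqp11, Slc26a6 and Scnn1g were lowest, at 0.661 to 1.22 CPM per kilobase in Lingo3-/- libraries and 0.461 to 0.934 in wild type libraries.

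Groups did not overlap in 17 members, 14 with Lingo3-/- higher (31.1%) and 3 with it lower (6.67%), beside 19.7% and 16% of all genes tested. The 3 lower ones were Slc12a7, Nr3c2 and Nedd4l. In the authors' deposited table, from DESeq2, were the same 10 members higher at an adjusted p under 0.05 and 1 lower, Kcnk5, against 10% and 6.72% of all its rows, and it rests on the same libraries.

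Other genes of the same pathways were listed by function. Of 173 such genes 124 were tested, and 16 (12.9%) rose and 10 (8.06%) fell, with a median log2 fold change of 0.01. Other secretion genes had a median log2 fold change of -0.05, against 0.60 for the 8 secretion members, and 3 of 22 rose and 1 fell. They were Clca1, a secreted goblet cell protein (log2 fold change 1.12, at 4268 ± 553 CPM in Lingo3-/- and 1958 ± 779 CPM in wild type libraries, SD, n = 3), Lrrc8e, a subunit of the volume-regulated anion channel (0.75), Ano7 (0.41) and, lower, the anion channel gene Best1 (-1.16). Of 7 goblet cell markers, Clca1 among them, 2 rose and 0 fell, and their summed level was 17790 to 20391 CPM in Lingo3-/- libraries and 13370 to 16346 CPM in wild type libraries. Clca1 lost its call without Lingo3-/- replicate 2 or wild type replicate 3, and Best1 without Lingo3-/- replicate 3. Best1 was low, at means of 1.41 CPM in Lingo3-/- and 3.20 CPM in wild type libraries. Among other absorption genes, 2 of 18 rose and 2 fell, with a median log2 fold change of -0.06, as for the 10 absorption members. Prss8, a protease that activates the epithelial sodium channel, rose (0.67), as did Slc12a8 (0.77). Slc9a3r1, the scaffold NHERF1 that holds Slc9a3 at the apical membrane, fell to 134 ± 24.5 CPM in Lingo3-/- libraries, against 209 ± 18.8 CPM in wild type libraries (SD, n = 3), for a log2 fold change of -0.64 ± 0.14 (SE) with an adjusted p of 0.0111 by edgeR. The low-level potassium-chloride cotransporter gene Slc12a4 also fell (-1.09), a call lost in 4 of the 6 fits that leave out a library.

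Among 16 other divalent ion and phosphate genes, 1 rose and 2 fell. S100g, the calcium-binding protein calbindin of intestinal calcium absorption, fell to 41.0 ± 5.10 CPM in Lingo3-/- libraries, against 108 ± 17.3 CPM in wild type libraries (SD, n = 3), for a log2 fold change of -1.39 ± 0.13 (SE) with an adjusted p of 0.000785 by edgeR. Vdr, the vitamin D receptor, was lower (-0.35) and Magt1 higher (0.43); the call of Vdr was lost in all 6 fits without 1 library and that of Magt1 in 4. Of 8 other sodium pump genes, Nkain1 rose (0.85) and Fxyd5 fell, to 5.63 ± 2.42 CPM in Lingo3-/- libraries against 11.3 ± 1.41 CPM in wild type libraries (SD, n = 3), calls lost in 5 and in 4 of those fits. Of 7 other carbonic anhydrases, Car13 rose (0.57), and Car4 (-0.68) and Car14 (-1.15) fell. Car14 was low, at means of 0.632 CPM in Lingo3-/- and 1.38 CPM in wild type libraries, and did not pass by DESeq2. Car4 lost its call without wild type replicate 1 or 3 or any Lingo3-/- replicate, Car14 in all 6 fits and Car13 without Lingo3-/- replicate 3. No other water channel of the list of 7 was abundant enough to test, by the filter on low counts. Among 18 other channels, 4 rose, among them Clic6 (0.90), Clns1a (0.42) and Kcnk6 (0.39), and Clic3 fell (-1.15). Each of these 4 named calls was lost without at least 2 of the libraries. Clic3 was low, at means of 1.17 CPM in Lingo3-/- and 2.61 CPM in wild type libraries.

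Among 19 corticosteroid and kinase regulators, 3 rose and 1 fell. Fkbp5, a gene induced by glucocorticoids, rose to 66.8 ± 6.78 CPM in Lingo3-/- libraries, against 45.1 ± 4.68 CPM in wild type libraries (SD, n = 3), for a log2 fold change of 0.57 ± 0.11 (SE) with an adjusted p of 0.00667 by edgeR. Zbtb16 (0.97) and the kinase gene Stk39 (0.32), whose kinase activates the cotransporter of Slc12a2, also rose. Sgk2 fell (-0.61). The calls of Zbtb16 and Stk39 were each lost in 4 of the 6 fits without 1 library, and that of Sgk2 without Lingo3-/- replicate 2. Of 16 genes of cyclic nucleotide and calcium signals, 1 rose: Guca2b, which encodes uroguanylin, a peptide that stimulates chloride secretion through guanylate cyclase C. It stood at 9.71 ± 0.666 CPM in Lingo3-/- libraries and 5.91 ± 0.634 CPM in wild type libraries (SD, n = 3), for a log2 fold change of 0.71 ± 0.15 (SE) with an adjusted p of 0.00861 by edgeR. Its far more abundant relative Guca2a stood at 569 ± 112 CPM in Lingo3-/- libraries and 646 ± 138 CPM in wild type libraries (SD, n = 3). Guca2a did not pass (edgeR adjusted p = 0.527).

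Several members share exon bases with another gene, and the strand setting of the counting is not given in the sources used here. Kcnq1 shares 121 of 4093 exon bases with the antisense transcript Kcnq1ot1, which had 19863 counts over the 6 libraries beside 4807 for Kcnq1, and a log2 fold change of 0.04 (adjusted p = 0.912 by edgeR). Cftr shares 129 of 7765 exon bases with the antisense gene Gm15592 (545 counts beside 12630). Fxyd3 shares 2059 exon bases with Lgi4 on the other strand (28 counts beside 1439), and Kcne3 and Kcnk1 overlap antisense genes with 0 counts.

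Counts over genes ran from 11868000 to 17200931 in Lingo3-/- libraries and from 25010618 to 28029583 in wild type libraries, so the wild type libraries were deeper. A floor of 3 counts equals 0.174 to 0.253 CPM of the unscaled library total in Lingo3-/- libraries and 0.107 to 0.120 in wild type libraries, and covers counting error only. Mitochondrial genes took 34.7 to 36.3% of the counts in Lingo3-/- libraries and 45.3 to 48.4% in wild type libraries, and their part in the results was not tested.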

How the data were processed

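The labels describe total RNA libraries made with a stranded kit after depletion of ribosomal RNA. The deposited count table holds raw counts per Ensembl gene, and the tools behind it, per the submitters' processing notes, were STAR, HTSeq, DESeq2 and Trimmomatic 0.39, with the build GRCm38. For the other versions, the strand setting and the annotation release, the sources used here give nothing. The authors' deposited comparison table gives log2 fold changes with standard errors, p-values, a Wald score and normalized signal columns per library (counts over a size factor), per the file headers, and was used for the choice of members and 1 comparison of calls.

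HTSeq's summary lines, 53.6 to 57.0% of reads in Lingo3-/- and 56.6 to 60.1% in wild type, were left out. Genes were kept by filterByExpr (minimum count 10, minimum total 15) and tested, after TMM scaling, with edgeR 4.0.16 (R 4.3.3, robust quasi-likelihood, 2-sided, genotype only, 16856 genes). SE is the absolute log2 fold change over the square root of F. Deviations by library are of log2 CPM with prior count 2. DESeq2 1.42.0 and limma 3.58.1 were alternatives. Exon lengths and positions are from GENCODE M21 (GRCm38).

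The members and lists were chosen with earlier results of these data known. All members were to be named. Of the other pathway genes, up to 4 a list were named, those past the threshold with a mean of at least 1 CPM and the largest absolute change.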

Additional observations from a re-analysis of the deposited data

How the results depend on the processing

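Leaving out a library gave 8 to 10 members higher, 0 to 5 lower, 1124 to 2686 genes changed in all and a secretion minus absorption difference of 0.60 to 0.79. The number of changed genes was 2596 with all libraries, 1371 without Lingo3-/- replicate 2, 1124 without Lingo3-/- replicate 3, 1672 without wild type replicate 2 and 1679 without wild type replicate 3. It was 3942 at an adjusted p under 0.1. With library totals only, where all genes had a median log2 fold change of 0.26 (against -0.03 with TMM factors), 5835 genes changed, 5415 of them higher and 420 lower, where TMM factors gave 1589 and 1007. Upper-quartile factors gave 1137 higher and 1365 lower. With library totals only 18 members were higher, the added 8 being Atp1b3, Car8, Car12, Clcn3, Fxyd3, Scnn1b, Slc41a1 and Trpm7. Members lower numbered 1 with upper-quartile factors (Slc12a7), 3 with DESeq2 and 3 without a filter (Kcnk5, Scnn1a and Trpm6 in both), 1 without Lingo3-/- replicate 3 (Kcnk5) and 5 without wild type replicate 2. The cause was not tested. Under RLE, limma-voom, DESeq2, upper-quartile factors, a mean of at least 1 CPM and the replicate block the same 10 members were higher.

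The replicate number as a block gave 2061 changed genes, 10 members higher and 0 lower. Same-numbered libraries did not deviate together (correlations of -0.01, -0.12 and -0.10 for numbers 1, 2 and 3 across genes). Deviations of 3 libraries from their group mean are tied to each other. These correlations therefore cannot settle whether the numbers pair the libraries. Of 630 comparisons of a member with an alternative setting, 602 kept direction or stayed short of the threshold, 23 gained a call and 5 lost it (Kcne3 in 4, Car2 in 1). At 3 libraries a group, the low genes Scnn1g and Trpv6 had intervals too wide to show changes of the size seen in the secretion genes. Intervals of abundant members also held changes of that size. Among them were Atp12a (-1.69 to 0.90), Slc20a1 (-1.70 to 0.34), Slc26a3 (-1.11 to 0.17), Aqp8 (-1.09 to 0.31) and Sgk1 (-0.90 to 1.38). A missing call in these genes is therefore no sign of an unchanged level.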
